A study of Homo sapiens with 6 samples.

Results

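The genes described here encode KIT ligand with its receptor KIT, the platelet-derived growth factor (PDGF) ligands and the vascular endothelial growth factor (VEGF) ligands. They are KITLG, KIT, PDGFA, PDGFB, PDGFC, PDGFD, VEGFA, VEGFB, VEGFC and PGF, taken by name from the protein-coding genes, and they make up 10 of the 58735 genes in the deposited table. RNA was sequenced from NCI-N87, an established gastric carcinoma cell line grown with 10% fetal bovine serum. The control group (shNC in the labels, shCtrl in the study) carried the empty lentiviral vector pSIH-H1-puro, and the knockdown group (shScamp1 in the labels, shS1#1 in the study) carried the same vector with an shRNA against SCAMP1. Both groups were selected with puromycin at 2 μg/ml as stable populations, and each has 3 libraries. A single shRNA was sequenced, so loss of SCAMP1 and any other effect of this shRNA cannot be told apart. The labels call the libraries biological replicates without naming separate infections, so p-values measure the spread between these samples only. Levels are in FPKM, here a read count divided by the length of the gene and by a size factor that scales each library.

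KIT ligand, also called stem cell factor, exists in membrane-bound and shed forms and activates the receptor tyrosine kinase KIT, which mast cells and the interstitial cells of Cajal of the gut wall depend on. PDGF chains form dimers that activate PDGFRA and PDGFRB, mostly on fibroblasts, pericytes and smooth muscle. PDGFA and PDGFB are processed inside the cell, whereas PDGFC and PDGFD are secreted in a latent form whose outer domain must be cut off by proteases such as the tissue and urokinase plasminogen activators. VEGF ligands act on FLT1, KDR and FLT4, which are best known on blood and lymphatic endothelium, and neuropilins (NRP1 and NRP2) serve as their co-receptors.

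The transcript targeted by the shRNA, SCAMP1, measured 12.6, 12.1 and 11.5 FPKM in control replicates 1 to 3 against 1.70, 1.37 and 1.99 FPKM in the knockdown replicates, which fits the labels. Reads on genes, recovered from the FPKM, numbered 14311769 to 15988700 per library. The library shS1#1 replicate 2 stood apart. Its mitochondrial share of reads was 9.21%, against 6.09% to 6.78% in the other 5 libraries. Of the 15556 genes tested, 8.38% to 9.81% differed by more than 1 log2 unit between this library and another of its group, and 5.07% to 5.48% did so in every other pair of the same group. The results below are therefore also given without it. Most epithelial markers were abundant in all libraries (KRT8 between 1491 and 3129 FPKM, EPCAM between 141 and 156), but MUC1 was at 0.816 to 1.01 FPKM. Of the 8 listed, 5 were called higher in shS1#1 cells, against 8.82% of all genes tested, and EPCAM, ERBB2 and MUC1 were not called. The sum of the list went from 5430 to 5712 FPKM to 9072 to 10025 FPKM. This rise was mostly that of KRT8 (mean 1534 to 3002 FPKM), KRT18 (875 to 2000) and KRT19 (1688 to 2844). Markers of the cells that usually respond to these ligands were low. The 6 fibroblast markers summed to 0.533 to 0.675 FPKM in shCtrl and 0.487 to 0.785 in shS1#1 libraries, with COL1A2, DCN and LUM at 0 reads, and the 5 smooth muscle and pericyte markers summed to 0.883 to 1.22 and 0.606 to 0.742 FPKM. The 6 endothelial markers summed to 1.59 to 1.98 FPKM in shCtrl and 2.44 to 3.25 in shS1#1 libraries, mostly ESAM, and the 7 mast cell and blood markers to 5.83 to 6.11 and 6.72 to 8.20 FPKM, nearly all GATA2. CD34, CPA3 and TPSAB1 were at 0 reads. ESAM (log2 fold change 0.58, adjusted p = 0.0453 by limma) and GATA2 (0.38, adjusted p = 0.0495 by limma) were called higher in shS1#1 cells, both close to the threshold of 0.05. The part of ESAM, GATA2 and the epithelial markers in the results below was not tested.

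NCI-N87 cells expressed 6 of the 10 genes, all ligands, and almost none of the receptors. Those whose mean reached 0.5 FPKM, and which were therefore tested, were KITLG, PDGFA, PDGFB, PDGFC, VEGFA and VEGFB. In shCtrl cells the highest levels were those of VEGFB (10.2 FPKM) and PDGFC (9.73 FPKM), whose ranges overlapped. KITLG followed at 6.81 FPKM, VEGFA at 3.59 FPKM, PDGFB at 1.77 FPKM and PDGFA at 1.44 FPKM, and from PDGFC down no range overlapped the next. The lowest PDGFB library (1.49 FPKM) was barely above the highest PDGFA library (1.47 FPKM). In shS1#1 cells the order was VEGFB (9.06 FPKM), PDGFC (6.39), PDGFB (4.69), VEGFA (3.06), KITLG (2.18) and PDGFA (1.89). There the ranges of VEGFA and KITLG overlapped, as did those of KITLG and PDGFA. PDGFB and KITLG had thus changed places. The deposited gene length is that of all annotated exons merged, which for VEGFA is 14431 bases against 3535 bases in its longest coding transcript. With the latter as length VEGFA would stand at 14.6 FPKM in shCtrl cells, above VEGFB at 11.4 FPKM and PDGFC at 13.1 FPKM. PDGFA would stand at 2.59 FPKM in shCtrl cells, above PDGFB at 1.91 FPKM. In shS1#1 cells it would stand at 3.41 FPKM, above KITLG at 2.36 FPKM. The order of the genes thus depends on the length used, whereas the ratio of one gene's FPKM between libraries does not. The filter at 0.5 FPKM and the 0.1 FPKM added before taking logs act on FPKM, so they depend on the length. Of the 6 tested genes, 1 was higher in shS1#1 cells and 2 were lower at a Benjamini-Hochberg adjusted p under 0.05 in limma, and 8.82% and 5.17% of all genes tested were called in these directions. Over all genes tested this was 1372 higher and 805 lower, whereas voom on the recovered reads, scaled to library totals, called 1300 higher and 1655 lower and called the same 3 of the 6 ligands in the same directions. Past an absolute log2 fold change of 1 as well were 2 of the 6, KITLG and PDGFB, and 3.16% of all genes. For 4 of the 6, and for 41.4% of all genes tested, all libraries of one group lay above all libraries of the other. Without shS1#1 replicate 2 the counts were again 1 higher and 2 lower, in a fit that called 14.9% of all genes higher and 13.4% lower. The median log2 fold change was -0.21 over the 6 genes and -0.02 over all genes tested.

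**Figure D1:**
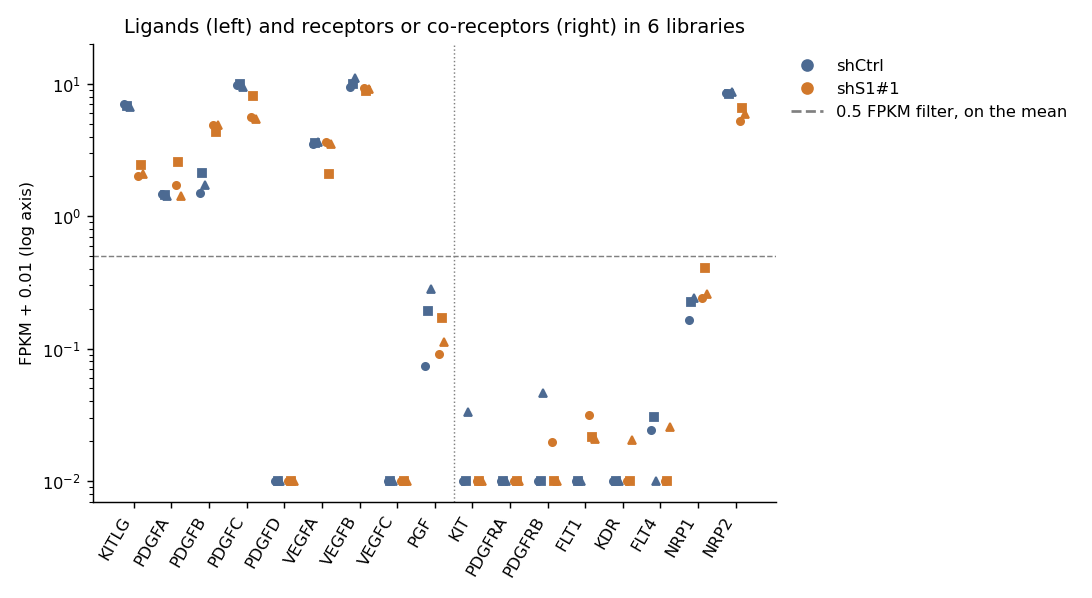
FPKM plus 0.01, on a log axis, of 9 ligand genes and 8 receptor or co-receptor genes in each of the 6 libraries, with 1 point per library. KITLG, PDGFA, PDGFB, PDGFC, VEGFA and VEGFB lie above the dashed filter line at 0.5 FPKM in every library, and NRP2 is the one gene on the receptor side that does.

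KITLG (ENSG00000049130, reverse strand of chromosome 12 from 88492793 to 88580851 on GRCh38) was the gene of the set that fell most. The 3 shCtrl libraries held 6.99, 6.77 and 6.67 FPKM of it and the 3 shS1#1 libraries 2.01, 2.45 and 2.08 FPKM. All 3 knockdown libraries lay far below all 3 controls, and the highest of them was replicate 2. The mean fell from 6.81 ± 0.167 to 2.18 ± 0.236 FPKM (SD, n = 3 each), which is 3.12-fold lower. The log2 fold change on log2(FPKM + 0.1), a scale that understates the change of low genes, was -1.60 (95% interval -1.83 to -1.38, adjusted p = 0.000510 by limma), and it was -1.69 without shS1#1 replicate 2 (adjusted p = 7.58e-05 by limma). In bulk RNA, fewer cells that express a gene and less RNA per cell cannot be told apart. The gene was covered by 182 to 700 reads per library. An antisense gene, AC024941.2, overlaps its start and had 1 to 6 reads per library. The exact two-sided permutation test gave p = 0.1, the smallest that 3 libraries against 3 allow, here and wherever the groups did not overlap.

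The promoter sequences of KITLG, which fell, and of VEGFB, the most abundant of these transcripts in both groups by deposited length, are shown to give the sequence in front of 2 expressed ligands, of which 1 was called and 1 was not. Both are the 250 bases before the RefSeq start on GRCh38.p14, 5′ to 3′ on the gene's strand, and capitals mark matches on either strand to TATAAA (the TATA box), GGGCGG (the GC box), CCAAT (the CCAAT box), ACGTG (the core that hypoxia-inducible factors bind) or TGANTCA (the AP-1 site). The KITLG window is chr12:88580472-88580721 on the reverse strand, and its start lies 380 bases inside the annotated gene of the table. The VEGFB window is chr11:64234334-64234583 on the forward strand, 46 bases from the table's gene start.

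KITLG: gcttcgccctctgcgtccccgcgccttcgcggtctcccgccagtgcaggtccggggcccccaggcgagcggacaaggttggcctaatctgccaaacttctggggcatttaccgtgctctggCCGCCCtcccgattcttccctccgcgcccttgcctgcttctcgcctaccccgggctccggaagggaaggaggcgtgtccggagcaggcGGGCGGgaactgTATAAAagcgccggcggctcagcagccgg

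VEGFB: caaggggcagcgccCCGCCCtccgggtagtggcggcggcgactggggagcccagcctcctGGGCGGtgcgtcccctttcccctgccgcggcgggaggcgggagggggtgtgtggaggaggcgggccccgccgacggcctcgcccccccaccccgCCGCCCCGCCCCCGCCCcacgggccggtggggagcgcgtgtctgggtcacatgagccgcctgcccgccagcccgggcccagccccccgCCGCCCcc

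The KITLG window held 1 TATAAA, 29 bases before the start, and 2 GC boxes, 41 and 129 bases before it, with no overlaps between them. The VEGFB window held 6 GC boxes, of which 3 overlap or adjoin each other, and none of the other motifs. Of 35116 RefSeq promoter windows of this length, 10.7% held TATAAA, 42.6% the GC box, 32.0% CCAAT, 18.5% ACGTG and 6.57% the AP-1 site. The GC content was 69.2% for KITLG and 82.8% for VEGFB, against a median of 58% over all windows. These matches describe the letters only.

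Of the 3 expressed PDGF ligands, PDGFB rose, PDGFC fell and PDGFA was not called. PDGFB (ENSG00000100311, chromosome 22 from 39223359 to 39244751, reverse strand) encodes a chain that recruits pericytes to vessels. It was at 1.49, 2.12 and 1.70 FPKM in shCtrl and at 4.88, 4.35 and 4.85 FPKM in shS1#1 libraries. Every knockdown library was above every control. The mean rose from 1.77 ± 0.320 to 4.69 ± 0.298 FPKM (SD, n = 3 each), which is 2.65-fold higher, with a log2 fold change of 1.37 (95% interval 1.03 to 1.70, adjusted p = 0.00229 by limma). Without shS1#1 replicate 2 it was 1.42 (adjusted p = 0.00201 by limma). Coverage was 89 to 268 reads per library, and the antisense gene AL031590.1 had at most 6.

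PDGFC (ENSG00000145431, chromosome 4 from 156760454 to 156971394, reverse strand), one of the 2 latent PDGFs, was the most abundant PDGF transcript. It was at 9.81, 9.91 and 9.48 FPKM in shCtrl and at 5.62, 8.11 and 5.45 FPKM in shS1#1 libraries. All knockdown libraries were lower, but replicate 2 lay between the other two and the controls. The mean fell from 9.73 ± 0.227 to 6.39 ± 1.49 FPKM (SD, n = 3 each). Its log2 fold change was -0.62 (95% interval -0.999 to -0.25, adjusted p = 0.0477 by limma). This call rests close to the threshold. Without shS1#1 replicate 2 the log2 fold change was -0.80 (adjusted p = 0.000330 by limma), in a fit that called 13.4% of all genes lower, while the fits that left out any other single library gave adjusted p between 0.0995 and 0.151. PDGFC was covered by 446 to 924 reads per library.

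PDGFA (ENSG00000197461, chromosome 7 from 497258 to 520296, reverse strand), a chain whose homodimer binds PDGFRA, was not called. It was at 1.47, 1.43 and 1.40 FPKM in shCtrl and at 1.72, 2.55 and 1.42 FPKM in shS1#1 libraries, with replicate 2 highest. The groups overlapped, and the log2 fold change was 0.34 (95% interval -0.18 to 0.85, adjusted p = 0.331 by limma) and 0.11 without shS1#1 replicate 2. PDGFD was at 0 reads in all 6 libraries, which allows a level of up to 0.0514 FPKM (3 reads, counting error only).

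**Figure D2:**
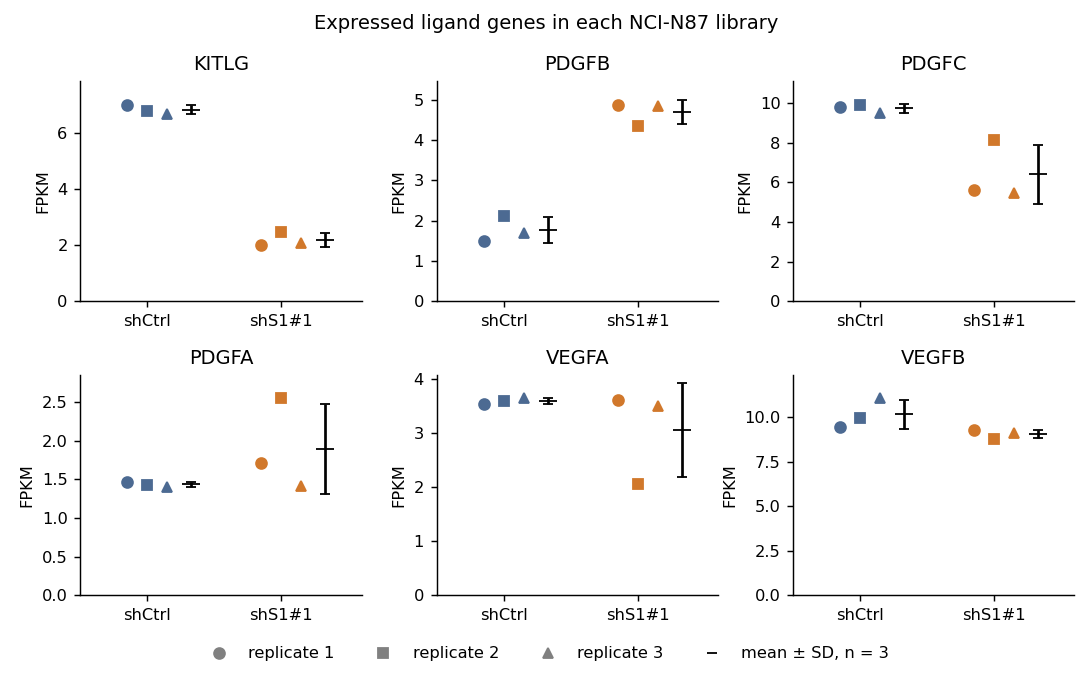
FPKM of the 6 expressed ligand genes in each library (shape for the replicate number, color for the group), with the mean and SD of 3 libraries beside them. KITLG falls from 6.81 to 2.18 FPKM and PDGFB rises from 1.77 to 4.69 FPKM with no overlap between groups, while shS1#1 replicate 2 (squares) is apart from the other two knockdown libraries for PDGFC, PDGFA and VEGFA.

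PDGFB and, to a lesser extent, PDGFA took larger shares of the PDGF transcripts, and PDGFC a smaller one, in every knockdown library than in every control. The summed FPKM of the PDGF ligands was 12.9 ± 0.464 in shCtrl and 13.0 ± 1.78 in shS1#1 cells (SD, n = 3 each), with overlapping ranges. PDGFB made up 11.7%, 15.8% and 13.5% of this sum in shCtrl and 39.9%, 28.98% and 41.4% in shS1#1 libraries, a difference of 23.1 percentage points (exact two-sided permutation test, p = 0.1). PDGFC made up 75.2% ± 1.59 and 48.8% ± 4.49, and PDGFA 11.1% ± 0.456 and 14.4% ± 2.47 (SD, n = 3 each). These shares depend on the length used. With the longest coding transcript of each gene as length, the difference in the PDGFB share was 19.4 percentage points. The log2 ratio of PDGFB to PDGFA, which no scaling of a library can move, was 0.02, 0.57 and 0.28 in shCtrl and 1.51, 0.77 and 1.78 in shS1#1 libraries (exact two-sided permutation test, p = 0.1). The lowest knockdown value was that of replicate 2, and the groups did not overlap. The sign of this ratio in shCtrl cells depends on the gene lengths used, whereas its difference between the groups does not.

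**Figure D3:**
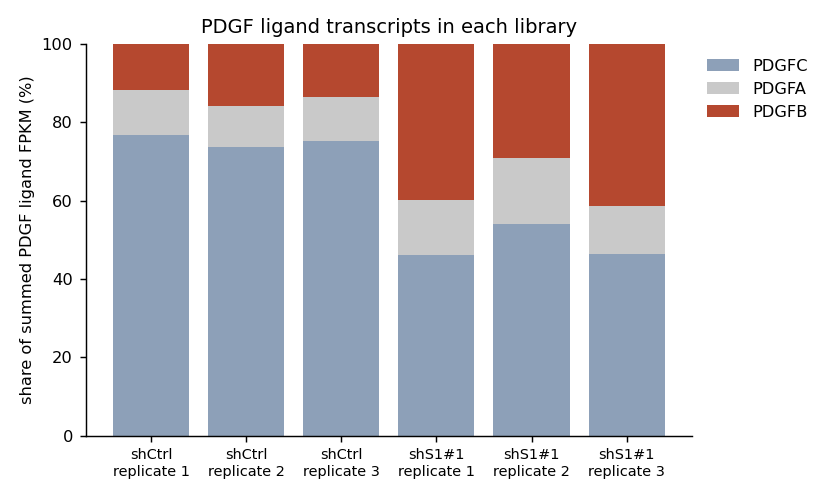
Share of the summed PDGF ligand FPKM (percent, bars from 0 to 100) taken by PDGFC, PDGFA and PDGFB in each of the 6 libraries, with PDGFD at 0 reads. PDGFB takes between 11.7% and 15.8% in the shCtrl libraries and between 28.98% and 41.4% in the shS1#1 libraries.

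Neither of the 2 tested VEGF ligands was called by limma or by voom, and neither had an unadjusted p under 0.05. VEGFA (ENSG00000112715, chromosome 6 from 43770184 to 43786487, forward strand), the main angiogenic ligand, was at 3.53, 3.59 and 3.64 FPKM in shCtrl and at 3.61, 2.06 and 3.50 FPKM in shS1#1 libraries. The low value was that of replicate 2, and the other 2 knockdown libraries lay within or next to the range of the controls. Its log2 fold change was -0.27 (95% interval -0.78 to 0.25, adjusted p = 0.438 by limma) with all libraries and -0.01 (adjusted p = 0.898 by limma) without replicate 2. VEGFB (ENSG00000173511, chromosome 11 from 64234538 to 64238793, forward strand), a ligand of FLT1, was at 9.43, 9.98 and 11.1 FPKM in shCtrl and at 9.26, 8.79 and 9.11 FPKM in shS1#1 libraries. These ranges did not overlap, yet the log2 fold change of -0.16 (95% interval -0.35 to 0.03, adjusted p = 0.226 by limma) was not called. Without shS1#1 replicate 2 it was -0.14 (adjusted p = 0.221 by limma). The summed FPKM of the VEGF ligands was 13.9 ± 0.985 in shCtrl and 12.2 ± 1.06 in shS1#1 cells (SD, n = 3 each). The groups narrowly did not overlap, with 13.0 as the lowest control and 12.9 as the highest knockdown value (exact two-sided permutation test, p = 0.1). VEGFA made up 25.8% ± 1.42 of this sum in shCtrl and 24.7% ± 5.19 in shS1#1 cells (SD, n = 3 each; exact two-sided permutation test, p = 1). The sum and the share depend on the length used, and with the longest coding transcript of each gene the mean shares were 55.2% and 53.5%. PGF, placental growth factor, was under the filter with 6 to 25 reads, at 0.0635, 0.181 and 0.271 FPKM in shCtrl and 0.0804, 0.159 and 0.103 FPKM in shS1#1 libraries, with overlapping groups. VEGFC, the lymphatic growth factor, was at 0 reads in all libraries, which allows up to 0.0906 FPKM (3 reads).

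Receptors for these ligands were close to undetected in both groups. KIT had 2 reads in all, both in shCtrl replicate 3 (0.0233 FPKM), and 3 reads would have been at most 0.0394 FPKM. PDGFRA had 0 reads in every library, which allows up to 0.0225 FPKM, and PDGFRB had at most 4 reads. The VEGF receptors FLT1, KDR and FLT4 had at most 4, 1 and 3 reads per library, and CSF1R and FLT3, receptors of the same class as KIT, at most 8 and 1. PDGFRL, a PDGF receptor-like protein without a kinase, was also under the filter at 0.142 to 0.403 FPKM. The related ligands VEGFD, CSF1, IL34 and FLT3LG reached at most 0.177 FPKM, and none was tested. The co-receptors differed from the kinases. NRP1 was low and not tested, at 0.153, 0.214 and 0.230 FPKM in shCtrl and 0.232, 0.399 and 0.249 FPKM in shS1#1 libraries. It had 28 to 63 reads per library, and its groups narrowly did not overlap, with shS1#1 higher. NRP2, on chromosome 2, was at 8.52, 8.37 and 8.68 FPKM in shCtrl and at 5.27, 6.55 and 5.89 FPKM in shS1#1 libraries. All knockdown libraries were below all controls. Its mean fell from 8.52 ± 0.155 to 5.90 ± 0.639 FPKM (SD, n = 3 each). The log2 fold change was -0.53 (adjusted p = 0.0153 by limma), and it was -0.60 without shS1#1 replicate 2 (adjusted p = 0.00198 by limma). NRP2 missed the threshold, with limma adjusted p of 0.0619 to 0.0749, when any 1 shCtrl library or shS1#1 replicate 3 was left out.

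**Figure D4:**
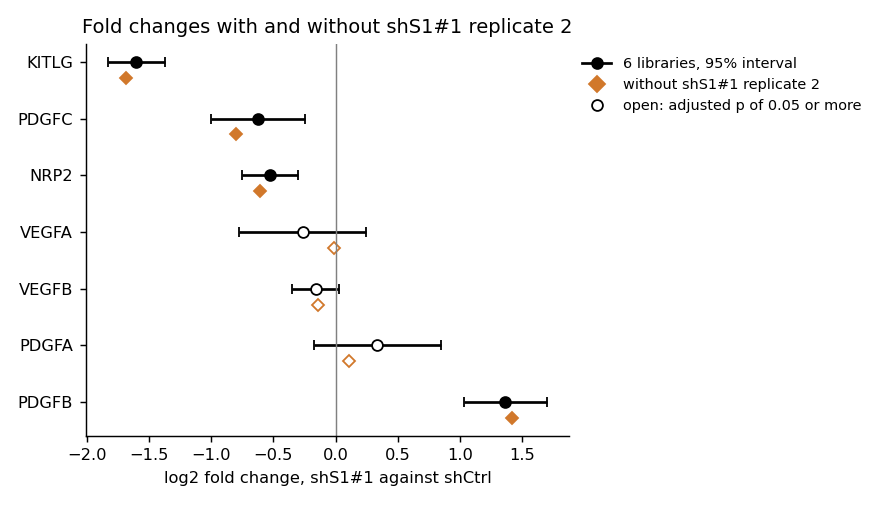
Log2 fold change of shS1#1 against shCtrl for the 6 tested ligand genes and NRP2, with 95% intervals from all 6 libraries (circles) and the value without shS1#1 replicate 2 (diamonds); open symbols have an adjusted p of 0.05 or more. KITLG (-1.60) and PDGFB (1.37) lie far from 0 with both sets, whereas VEGFA moves from -0.27 to -0.01 and PDGFC from -0.62 to -0.80.

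Enzymes that free or activate these ligands were examined as a list of 13 genes, of which 7 were tested and 3 rose, with none lower and a median log2 fold change of 0.09. Over all genes tested, 8.82% were called higher and 5.17% lower. PLAT, the tissue plasminogen activator that activates latent PDGFC, rose from 0.981 ± 0.0986 to 9.54 ± 0.862 FPKM (SD, n = 3 each). Its log2 fold change was 3.16 (adjusted p = 0.000165 by limma). FURIN, which cuts PDGF and VEGFC precursors, rose from 62.5 to 87.4 FPKM (log2 fold change 0.48, adjusted p = 0.00511), and ST14, the membrane protease matriptase, rose from 123 to 162 FPKM (0.40, adjusted p = 0.0122).

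Hypoxia-inducible factors drive VEGFA in many cells, so their pathway was set beside it. Of 8 regulators 7 were tested, and 1 rose. HIF1A, which encodes an oxygen-regulated subunit, went from 28.3 ± 1.13 to 40.1 ± 3.79 FPKM (SD, n = 3 each), a difference of 0.50 on the log2 scale (adjusted p = 0.0145 by limma). Of 14 target genes 12 were tested, 2 rose and 1 fell, with a median log2 fold change of 0.16. With 8.82% of all genes called higher and 5.17% lower, counts this small in lists of this size do not set either list apart. ANGPTL4, a lipoprotein lipase inhibitor, rose from 0.663 to 1.42 FPKM (1.00, adjusted p = 0.0292), NDRG1 rose from 4.80 to 5.81 FPKM (0.27, adjusted p = 0.0453), and P4HA1, a collagen prolyl hydroxylase, fell from 8.21 to 6.001 FPKM (-0.45, adjusted p = 0.0410). Among 21 genes of signalling just below these receptors, all tested, 2 rose and 1 fell, with a median of 0.10, close to the shares of 8.82% and 5.17% over all genes. They were the adaptor GAB1 (0.59, adjusted p = 0.0322), the kinase SRC (0.33, adjusted p = 0.0408) and the transcription factor STAT5B (-0.37, adjusted p = 0.0208). Without shS1#1 replicate 2, 6 rose and 3 fell in this list, 3 and 2 among the hypoxia targets, 2 and 1 among their regulators, and 3 and 1 among the ligand-processing enzymes, while the shares over all genes went up to 14.9% higher and 13.4% lower. Of 13 other vascular factors, among them the angiopoietins and thrombospondins, 4 were tested. None was called by limma, although 2 had an unadjusted p under 0.05 and voom called 1.

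**Figure D5:**
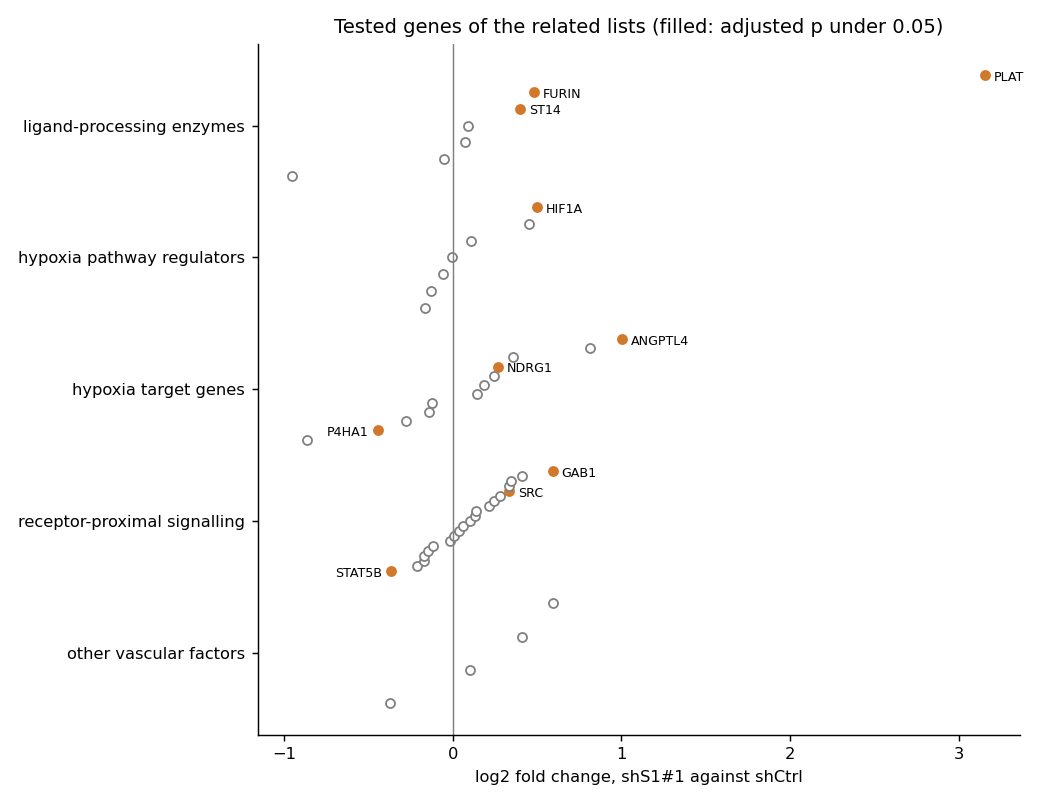
Log2 fold change of shS1#1 against shCtrl for each tested gene of 5 related lists, 1 point per gene, with genes at an adjusted p under 0.05 filled and named. PLAT at 3.16 lies far from the rest.

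The genes whose profile over the 6 libraries was nearest to KITLG and PDGFB were looked for among 11528 other tested protein-coding genes, by the Euclidean distance between centred log2(FPKM + 0.1) values. For KITLG they were DACH1 (distance 0.17, log2 fold change -1.64), ARNT2 (0.17, -1.65) and VIL1 (0.25, -1.51), and the last encodes villin, a microvillus protein of the gut epithelium. For PDGFB they were TP53INP1 (0.04, 1.39), CYP1A1 (0.20, 1.47) and HRASLS2 (0.21, 1.38). With 2 groups of 3 libraries, this distance reflects mostly the size of the difference between the groups. Within 500 kb of KITLG 3 protein-coding genes were tested and none was called by limma or voom or had an unadjusted p under 0.05, with log2 fold changes from -0.10 to 0.25. Within 500 kb of PDGFB 17 were tested, 3 rose and 1 fell, against 8.82% and 5.17% of all genes, and their log2 fold changes ran from -0.51 to 0.51.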

How the data were processed

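The table holds FPKM for 58735 genes in 6 libraries, as deposited by the authors, whose sequencing and data analysis were done by a company. The submitters' processing notes name HISAT2 2.0.5, featureCounts 1.5.0-p3, DESeq2 1.20.0 and hg38. The annotation and the strand setting are not given in the sources used here. Gene coordinates and lengths are those in the table. Read counts were recovered from FPKM and gene length (100% of values above 0 within 0.05 of a whole read), and the deposited FPKM already carry a size factor for each library. The main test was limma 3.58.1 in R 4.3.3 on log2(FPKM + 0.1), with eBayes following the mean-variance trend. It covered the 15556 genes whose mean over the libraries reached 0.5 FPKM, with Benjamini-Hochberg adjustment over all of them. It was first run on reads simulated with the same dispersion for every gene. That simulation had no deviating library and so does not cover one such as shS1#1 replicate 2. Single values were compared by exact two-sided permutation tests. The genes and lists were chosen with earlier results of these data known. Values are named for all 10 genes, all receptors and related ligands, up to 4 called genes of each other list, and the 3 genes nearest in profile to each gene past both thresholds. Limits from reads cover counting error only. The intervals of the log2 fold changes come from the limma fit and measure the spread between these libraries. Alternative fits varied the pseudocount, low-value filter, library scaling, variance trend, biotypes, test (voom), replicate block and libraries included. Promoters came from RefSeq (GRCh38.p14), which held 7 of the 10 genes.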

Additional observations from a re-analysis of the deposited data

How the results depend on the processing

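KITLG and PDGFB passed the threshold in all 15 alternative fits, with log2 fold changes of -1.72 to -1.30 and 1.04 to 1.498, and PDGFA, VEGFA and VEGFB passed in none of them. PDGFC passed in 6 of 15, and the number of ligand genes called lower depended on it. That number was 1 instead of 2 with no filter, with upper quartile scaling, with no trend and with the replicate block. The log2 fold change of PDGFC was then -0.62 (adjusted p = 0.0942 by limma), -0.63 (0.0556), -0.62 (0.0721) and -0.62 (0.0713). Leaving out 1 library at a time gave -0.80 to -0.52 for PDGFC and 1 to 2 genes called lower. The cause was not tested. Deviations of libraries with the same replicate number correlated at -0.035, 0.032 and 0.067, against -0.084 to 0.054 for different numbers. With 3 libraries per group this cannot decide whether libraries were prepared in pairs, which the labels do not say. The replicate block left 704 genes higher and 254 lower of all tested, against 1372 and 805 without it. With the block KITLG had an adjusted p of 0.00975, PDGFB of 0.0206 and NRP2 of 0.0568 by limma. Leaving out shS1#1 replicate 2 gave 2296 genes higher and 2078 lower, and leaving out any 1 shCtrl library 651 to 674 higher and 166 to 185 lower. Without shS1#1 replicate 3 they were 715 and 314. Ligands listed at 0 reads and PGF were too shallow to compare.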
